A study of Mus musculus with 49 samples.

Results

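Haploid mouse embryonic stem (ES) cells sorted through a G1 gate were set against diploid mouse ES cells sorted through a G1 gate, with both lines grown in 2i medium without feeder cells. The members are the cells that the authors listed under the condition 2i_G1 in the haploid table and 1CD_G1 in the diploid 2i table and that passed the authors' quality control. They number 271 haploid and 280 diploid cells, 551 of the 4098 passing cells of the series. The haploid cells are the line H129-1 (ESC20), whose label also carries the word hybrid without naming the parents, and the diploid cells are an F1 hybrid of the 129/SV-Jae strain and castaneus. Each ploidy is therefore 1 line, and ploidy, strain background and the set of libraries cannot be told apart. The study measured chromosome contacts by Hi-C in single ES cells of both lines through the cell cycle. Cells were fixed in formaldehyde, and those meant for a defined stage were stained with the DNA dye Hoechst, some also with an antibody to Geminin, and sorted as nuclei. The labels do not say which stains set the gate of each library. None of the deposited tables used here holds a value per gene, so the results are about contact features of whole cells.

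Hi-C joins DNA ends that lie close together in the nucleus, and in a single cell the joined pairs show how that cell's chromosomes are folded. Contacts at intermediate distances dominate in condensed mitotic chromosomes, and after division the chromosomes start from a polarised arrangement and expand as G1 proceeds. Short-range contacts accumulate from G1 into S phase, and the study used the balance of contact distances to order cells along the cycle. Before replication a haploid cell holds 1 copy of each chromosome and a diploid cell holds 2, so fewer contacts per cell are available to be captured in a haploid nucleus. Haploid ES cells tend to become diploid in culture and are kept haploid by sorting on DNA content.

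The haploid gate came from 5 libraries with 14, 57, 55, 73 and 72 passing cells (libraries 10 to 14). The diploid gate came from 3 libraries, of which libraries 19 and 20 had 141 and 134 passing cells, and the library labelled 15_16_17_18 had 5. Contacts summed over the passing cells of a library ran between 653806 and 6087617 in haploid libraries and between 1092913 and 33570739 in diploid libraries. Each of the 8 libraries was sequenced in a lane of its own, 226 of 240 index pairs occurred in more than 1 library, and no cell name occurred in both lines. Haploid library 10 stood apart in depth, with a mean of 46700 contacts per cell against 76084 to 84550 in the other haploid libraries. Library means were used only where a library had at least 10 cells of the kind compared, which leaves 5 haploid and 2 diploid libraries over all cells. Within the authors' groups G1 and early-S it leaves 4 haploid libraries (11 to 14) and 2 diploid libraries (19 and 20). Library means were compared by a two-sided exact permutation test with Benjamini-Hochberg adjustment over 21 tests (7 features in 3 sets of cells). At 5 against 2 libraries the smallest p this test allows is 0.0476, at 4 against 2 it is 0.0667, and the smallest adjusted p the 21 tests allow is 0.0667. No difference could therefore pass 0.05 after adjustment, and differences below are described by whether the library means overlap. Whether the libraries of a line were separate cultures is not stated in the labels, so each p-value reflects only spread from library to library, which may be technical.

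Over all cells, the distance of far contacts was longer, the mitotic-band share smaller and the number of contacts per cell lower in the haploid gate, with no overlap between library means. Over the 21 comparisons the library means did not overlap in 16 (76.2%). That was 6 of 7 features over all cells (85.7%), 5 of 7 in G1 (71.4%) and 5 of 7 in early-S (71.4%). Contacts per cell, the share without digestion and the duplicated share, which are not features of folding, were among them in all 3 sets. The set of all cells includes the G1 and early-S cells. By the exact permutation test 6 of 21 comparisons (28.6%), all of them over all cells, had an unadjusted p of 0.0476, and 0 of 21 (0%) passed 0.05 after adjustment. When the diploid library with 5 cells and all small groups were also kept (at least 1 cell, 5 against 3 libraries, a setting chosen after the data were seen), 10 of 21 (47.6%) passed adjusted and 14 of 21 (66.7%) unadjusted. Those 10 calls rest on the small diploid library, which holds 5 cells in all, 4 of them in G1 and 1 in early-S, so its early-S value is that of a single cell. Leaving out that library, either other diploid library or haploid library 10, 11, 12 or 14 left 0 calls, and leaving out haploid library 13 gave 13 calls. The smallest p is 0.0179 with all libraries, 0.0476 without a diploid library and 0.0286 without a haploid library. At 0.0476 nearly all of the 21 tests would have to reach the floor for any to pass. These counts therefore also reflect the smaller number of libraries.

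Contacts per cell were the plainest difference. Haploid libraries 10 to 14 averaged 46700, 76084, 82698, 78659 and 84550 contacts per cell, against 186293 and 250528 in diploid libraries 19 and 20. Every haploid library lay below both diploid libraries, with means of 73739 ± 15475 in 5 haploid and 218411 ± 45421 in 2 diploid libraries (SD) and a diploid over haploid ratio of 2.96. The exact permutation p was 0.0476 (adjusted 0.0875), at the floor of the design. In G1 cells the haploid mean was 77362 ± 6687 (n = 4), against 213693 ± 46496 in diploid cells (n = 2), a diploid over haploid ratio of 2.76. In early-S cells the means were 80714 ± 5779 and 211434 ± 66006, a ratio of 2.62. The ratio of the line means was thus above 2, the ratio of genome copies before replication, in all 3 sets of cells. In early-S the lowest diploid library averaged 164760 and the highest haploid library 85394 contacts. Contacts per cell also differed between sets of libraries of a line. In G1, diploid 2i cells listed as 1CDU averaged 117770 and haploid serum cells 118343 contacts. The part of ploidy in the ratio was not tested. Counting single cells, 4 of 271 haploid cells (1.48%) had more contacts than the diploid median of 227260, and the haploid median was 71638. Contacts also varied more among cells of a haploid library, with a coefficient of variation of 48.2 to 91.6% in the 5 haploid libraries and 33.1 to 46.7% in the 2 diploid libraries.

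**Figure D1:**
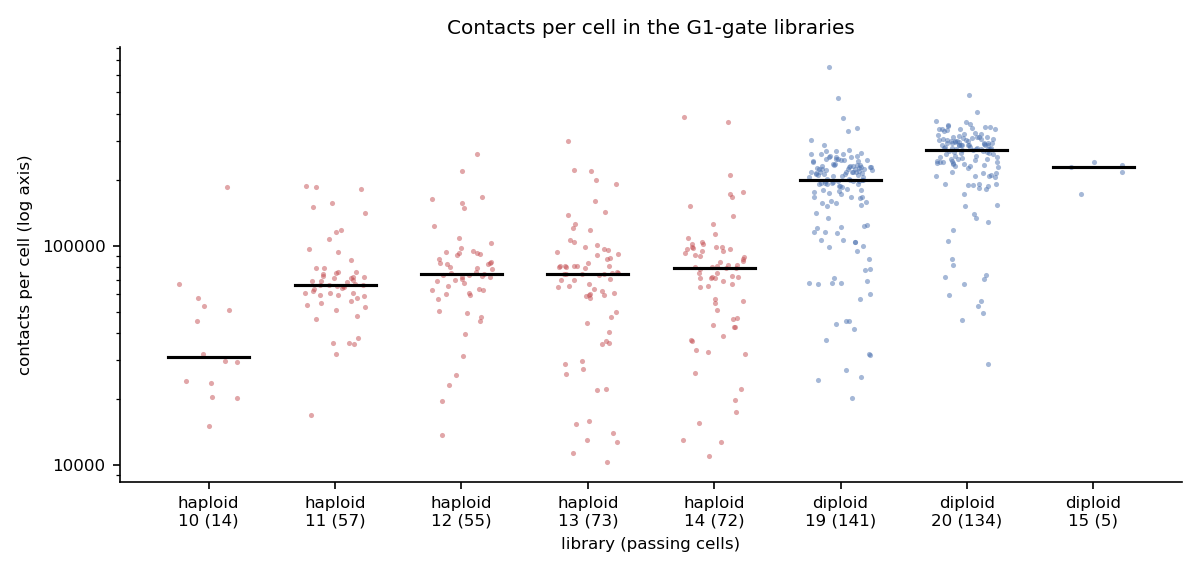
Contacts per passing cell (log axis) in the 5 haploid and 3 diploid libraries of the G1 gate, with 1 point per cell and a black line at the library median. Most haploid cells lie below the diploid median of 227260 contacts, and haploid library 10 has the lowest mean, 46700.

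The duplicated share and the share without digestion also differed between the lines. The share of duplicated fragment ends averaged 1.06 ± 0.241% in haploid libraries and 3.14 ± 0.897% in diploid libraries, and no haploid library (0.895 to 1.48%) reached a diploid one (2.50 to 3.77%). The share without digestion, named for ends that the restriction enzyme left uncut, averaged 28.7 ± 1.29% in haploid and 35.1 ± 0.994% in diploid libraries. Haploid libraries ran between 27.4 and 30.8% and diploid libraries between 34.4 and 35.8%, so these groups did not overlap either. The small diploid library, at 30.3% without digestion, lay inside the haploid range. Both shares had an exact permutation p of 0.0476 (adjusted 0.0875) over all cells. The part of depth and of digestion in the contact features below was not tested beyond a window of overlapping depth, within which haploid cells still had fewer contacts.

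The far contact distance, the mean span of the long contacts within chromosomes, was longer in the haploid gate in all 3 sets of cells. Over all cells, haploid libraries 10 to 14 averaged 31.8, 31.8, 30.9, 31.8 and 32.2 Mb, against 26.3 and 26.5 Mb in diploid libraries 19 and 20. All haploid libraries exceeded both diploid libraries by far more than the spread within a line. The means were 31.7 ± 0.470 Mb (n = 5) and 26.4 ± 0.166 Mb (n = 2), a haploid minus diploid difference of 5.32 Mb (exact permutation p = 0.0476, adjusted 0.0875). Without haploid library 10 it was 5.28 Mb, against 5.32 Mb with it, and leaving out any 1 library kept it between 5.20 and 5.51 Mb. Among single cells 226 of 271 haploid cells (83.4%) lay above the diploid median of 25.9 Mb, and the haploid median was 32.9 Mb.

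The longer far distance was present within both of the authors' groups. Each line has its own division into groups, so cells of the same group may differ in stage between the lines. In G1 cells haploid libraries 11 to 14 averaged 30.2, 28.5, 30.6 and 31.5 Mb, against 25.7 and 25.5 Mb in diploid libraries 19 and 20, a difference of 4.61 Mb. In early-S cells the same haploid libraries averaged 34.5, 32.5, 32.9 and 33.8 Mb, against 29.3 and 29.9 Mb, a difference of 3.84 Mb. Neither set overlapped, and each had the exact permutation floor of 0.0667 (adjusted 0.0875). Haploid G1 cells thus had far distances close to those of diploid early-S cells, 30.2 ± 1.25 Mb (n = 4) beside 29.6 ± 0.423 Mb (n = 2).

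Cells from windows of overlapping depth and of overlapping short-range share were also compared. Between 73466 and 138275 contacts there were 98 haploid cells (36.2%) and 25 diploid cells (8.93%). In that window the far distance averaged 31.8 Mb in 4 haploid libraries and 27.1 Mb in the only diploid library with enough cells, a difference of 4.66 Mb. Depth was closer there but not equal, with means of 90364 contacts in the haploid libraries (88177 to 93009) and 106942 in the diploid library. Among cells with a short-range share of 50.3 to 66.4% (188 haploid and 223 diploid cells) the means were 32.3 ± 0.647 Mb in 5 haploid and 27 ± 0.263 Mb in 2 diploid libraries, a difference of 5.27 Mb. The short-range shares of these cells averaged 59.1 and 58.9% and overlapped. Within that window the far distance differed by 4.73 Mb in G1 and by 4.73 Mb in early-S cells. The short-range share was still lower in haploid cells there, 56.0 against 58.0% in G1 and 63.0 against 64.5% in early-S, without overlap. Along the short-range share in bins of 5 percentage points, the 18 haploid cells at 45 to 50% averaged 27.5 Mb and the 22 diploid cells 19.3 Mb. At 60 to 65% the 60 haploid cells averaged 34 Mb and the 82 diploid cells 28.1 Mb. Haploid means were longer in each of the 6 bins between 45 and 75%, although the highest of these held only 5 diploid cells. At 75 to 80% the 6 haploid and 2 diploid cells averaged 29.1 and 27.9 Mb, too few cells to compare.

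**Figure D2:**
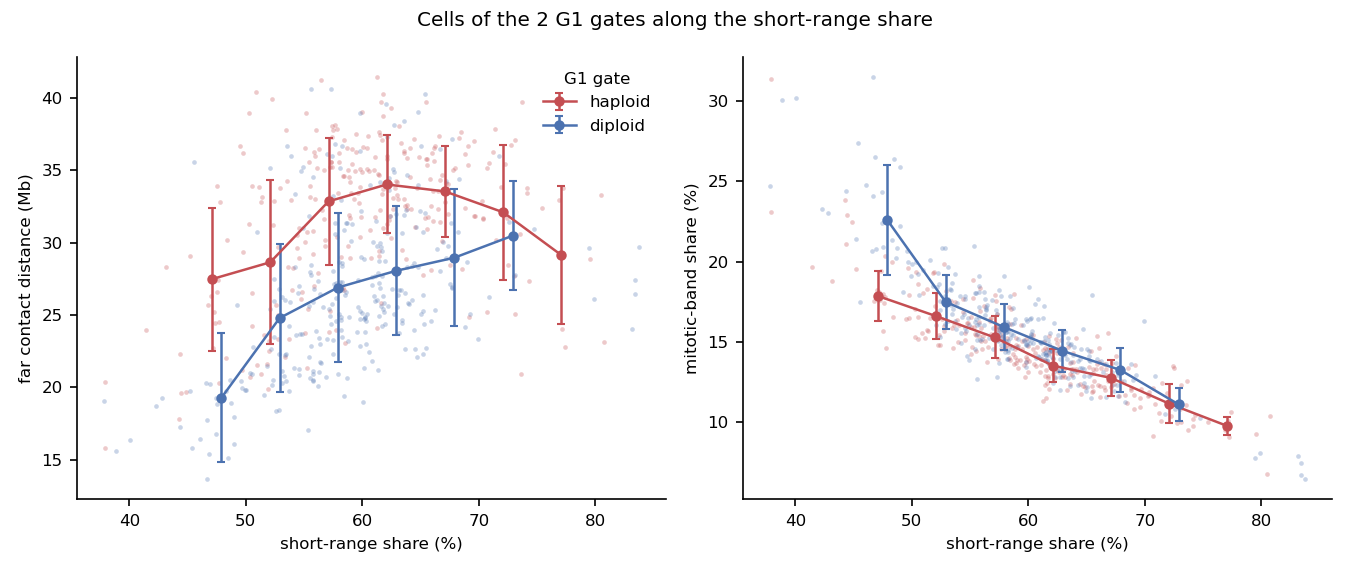
Far contact distance (Mb, left) and mitotic-band share (%, right) of single cells against their short-range share (%), with haploid cells in red and diploid cells in blue. Lines join means of bins of 5 percentage points with at least 5 cells, shifted slightly apart, and bars are the SD over cells. In the bin at 60 to 65% haploid cells average 34 Mb and diploid cells 28.1 Mb.

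Other libraries of the same haploid line did not have the long far distance of the gated cells. Haploid cells listed as 2i_all averaged 28.1 Mb in early-S (5 batches, 26.3 to 29.2 Mb), and haploid serum cells listed as Serum_G1/S averaged 27.6 Mb (4 batches, 27.3 to 28.2 Mb), against 32.5 to 34.5 Mb in the gated haploid libraries. In G1 the haploid serum cells averaged 26.3 Mb (4 batches, 24.7 to 27.9 Mb), and 17 haploid 2i_all cells of 1 batch averaged 23.8 Mb. Diploid 2i cells listed as 1CDU averaged 30.0 Mb in early-S (4 batches, 29.6 to 30.6 Mb), 27.2 Mb in G1 (4 batches, 26.2 to 28.8 Mb) and 29.1 Mb over all their groups. The other diploid 2i conditions had shorter early-S means. These were 27.5 Mb in NoSort cells (8 batches, 26.7 to 28.5 Mb), and 27.3 Mb (1CD_eS), 27.5 Mb (1CD_mS) and 28.1 Mb (1CD_lS_G2) with 2 batches each. Early-S cells outside the gates also had larger short-range shares. Haploid cells averaged 70.0% (2i_all) and 69.5% (Serum_G1/S) against 65.8% in the gate. Diploid cells averaged 69.9% (1CDU) to 75.5% (1CD_mS) against 66.3% in the gate. In G1 the haploid shares were 55.9% (2i_all), 53.4% (Serum_G1/S) and 54.1% (gate). These differences, and the part of the short-range share in them, were not tested.

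The mitotic-band share was smaller in the haploid gate over all cells but overlapped within each group. This share, the contacts at the intermediate distances of condensed chromosomes, averaged 14.6, 14.7, 14.4, 14.2 and 15.0% in haploid libraries 10 to 14, against 16.1 and 15.8% in diploid libraries 19 and 20. No haploid library reached a diploid one over all cells, and the difference was -1.35 percentage points (exact permutation p = 0.0476, adjusted 0.0875), or -1.36 points without haploid library 10. Within G1 the means were 16.4 ± 0.397% (n = 4) and 16.8 ± 0.158% (n = 2) and overlapped, with an exact permutation p of 0.200 (adjusted 0.247). In early-S they were 12.8 ± 0.251% and 13.1 ± 0.156% and overlapped too, with an exact permutation p of 0.267 (adjusted 0.295). In the window of overlapping short-range share the difference over all cells was -0.81 percentage points.

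The short-range share, the contacts of the nearest distances, overlapped over all cells. Haploid libraries averaged 60.5, 58.8, 61.2, 61.1 and 59.3%, against 58.5 and 59.3% in diploid libraries 19 and 20 (exact permutation p = 0.238, adjusted 0.278). The difference was 1.31 percentage points, and 3.02 points in the window of overlapping depth, where 4 haploid libraries (59.4 to 63.8%) lay above the 1 diploid library (58.3%). In G1 cells haploid libraries 11 to 14 were close together at 54.2, 53.7, 54.1 and 54.3%, below 56.1 and 56.9% in diploid libraries, a difference of -2.41 percentage points (exact permutation p = 0.0667, adjusted 0.0875). In early-S cells the means were 65.8 ± 0.931% and 66.3 ± 0.579% and overlapped (exact permutation p = 0.533, adjusted 0.560). Each table divides G1 from early-S at its own short-range shares, and the part of that division in the G1 difference was not tested. Haploid G1 cells had short-range shares of up to 64.1%, and haploid early-S cells in the whole table started at 57.5%. Diploid G1 cells reached 65.3%, and diploid early-S cells started at 62.2%.

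The share between chromosomes gave differences that varied with the group and the libraries kept. Over all cells it averaged 6.16, 5.88, 6.40, 6.13 and 6.23% in haploid libraries 10 to 14, against 5.79 and 5.49% in diploid libraries 19 and 20, with no overlap. The difference was 0.520 percentage points (exact permutation p = 0.0476, adjusted 0.0875), but the small diploid library had 6.78%, above every haploid library. With that library kept, the difference was 0.139 points and the groups overlapped (exact permutation p = 0.643, adjusted 0.675). In G1 the means were 5.43 ± 0.364% and 5.34 ± 0.360% and overlapped (exact permutation p = 0.800, adjusted 0.800). In early-S the haploid libraries (6.85 to 6.97%) stayed just above the diploid ones (6.73 to 6.79%), a difference of 0.159 points. In the window of overlapping depth the share averaged 6.61% in 4 haploid libraries and 5.09% in 1 diploid library, a difference of 1.53 points without overlap. In G1 cells of that window the difference was 0.979 points (2 haploid libraries and 1 diploid library), against 0.0871 points in all G1 cells. Within libraries of at least 20 cells, cells with more contacts tended to have a larger share between chromosomes, with Spearman's rho of 0.275 to 0.496 in 4 haploid libraries and 0.132 to 0.211 in 2 diploid libraries. Contacts per cell and far distance were less related, with rho of 0.0110 to 0.277 in haploid libraries and -0.104 and 0.112 in diploid libraries. These correlations are descriptions across cells that share a library.

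**Figure D3:**
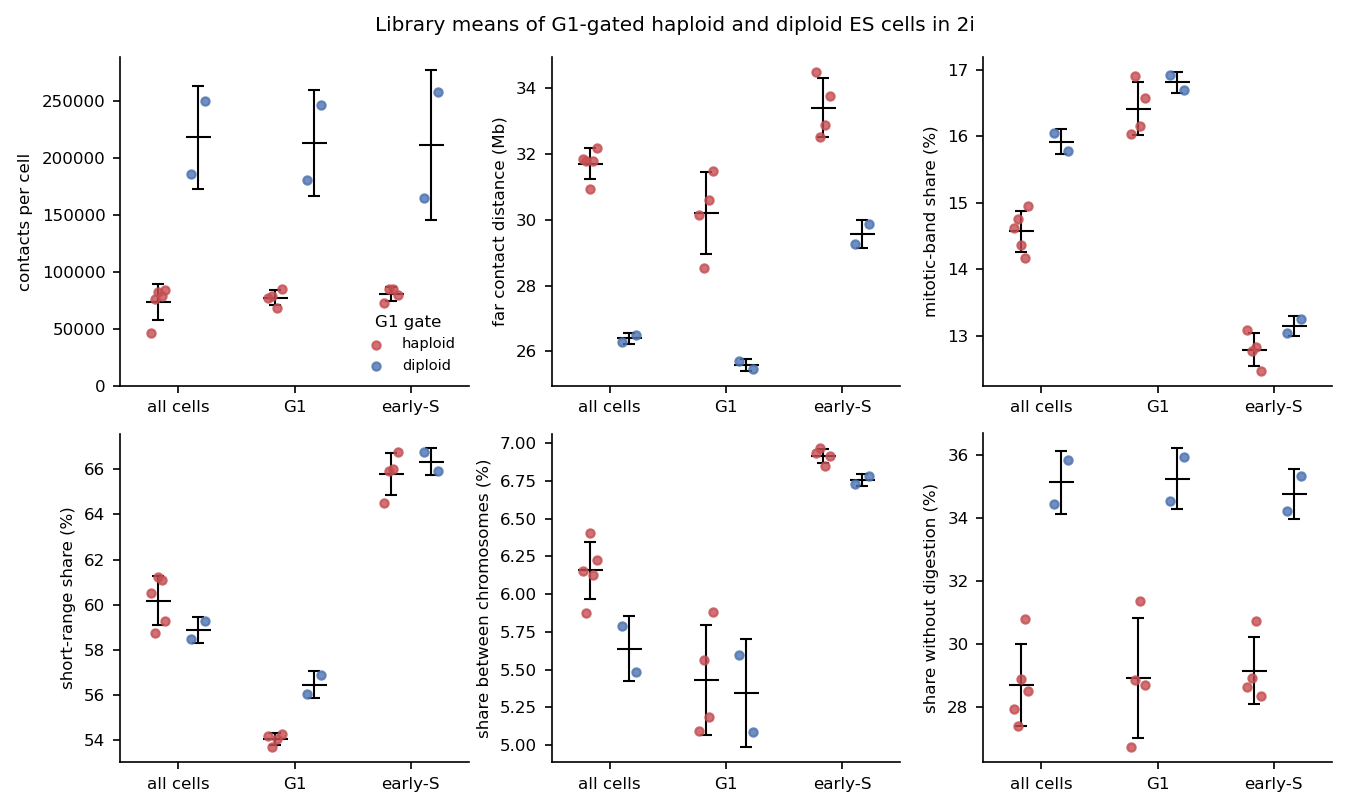
Library means of contacts per cell, far contact distance (Mb) and shares of contacts (%) for all cells, G1 and early-S cells of the G1 gate, haploid left (red) and diploid right (blue). Points are libraries with at least 10 cells, and black bars are the mean and SD over libraries. In G1 the far distance is 28.5 to 31.5 Mb in haploid and 25.5 to 25.7 Mb in diploid libraries, while the mitotic-band shares overlap.

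The authors' groups divided the 2 gates differently. Haploid libraries 10 to 14 had 42.9, 57.9, 40.0, 45.2 and 62.5% of their passing cells in G1, against 81.6 and 76.1% in diploid libraries 19 and 20. Every haploid library lay below both diploid libraries, with means of 49.7 ± 9.90% (n = 5) and 78.8 ± 3.85% (n = 2) and a difference of -29.1 percentage points (-27.4 points without haploid library 10). Early-S cells made up 48.2 ± 10.4% of haploid and 19 ± 4.80% of diploid libraries. The exact permutation p was 0.0476 for both shares, 0.0714 after adjustment over 3 shares, and 0 of 3 (0%) passed. In pooled cells 139 of 271 haploid cells (51.3%, exact Clopper-Pearson 95% interval 45.2 to 57.4%) and 221 of 280 diploid cells (78.9%, 73.7 to 83.6%) were in G1. Counting error is all that these intervals, and the limits given for 0 cells, take into account. Late-S/G2 cells were rare in both gates, 7 haploid cells (2.58%, 1.05 to 5.25%) and 6 diploid cells (2.14%, 0.790 to 4.61%). No post-M or pre-M cell occurred, for which the upper end of the exact Clopper-Pearson 95% interval is 1.35% in the haploid and 1.31% in the diploid gate (3 cells over the total give 1.11 and 1.07%).

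Since each table has its own division into groups, both lines were also divided at 1 short-range share, a comparison chosen after the data were seen. The authors give no such border, and G1 and early-S cells overlap in this share. Each border was therefore set midway between the highest G1 cell and the lowest early-S cell of a table. These were 64.1 and 57.5% in the haploid table and 65.3 and 62.2% in the diploid table. Cells between them can fall on another side than in the authors' groups. With the border of the haploid table, 60.8%, 50.5 ± 12.2% of haploid cells and 60.2 ± 9.15% of diploid cells lay below it, a difference of -9.70 percentage points (exact permutation p = 0.381). With the border of the diploid table, 63.8%, the shares were 68.6 ± 8.07% and 80.3 ± 1.74%, a difference of -11.7 points (exact permutation p = 0.190). Library values overlapped at both borders. By the authors' groups the difference in the G1 share was -29.1 points. In the share of cells below 1 such border it was -9.70 or -11.7 points, within the overlap of libraries.

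**Figure D4:**
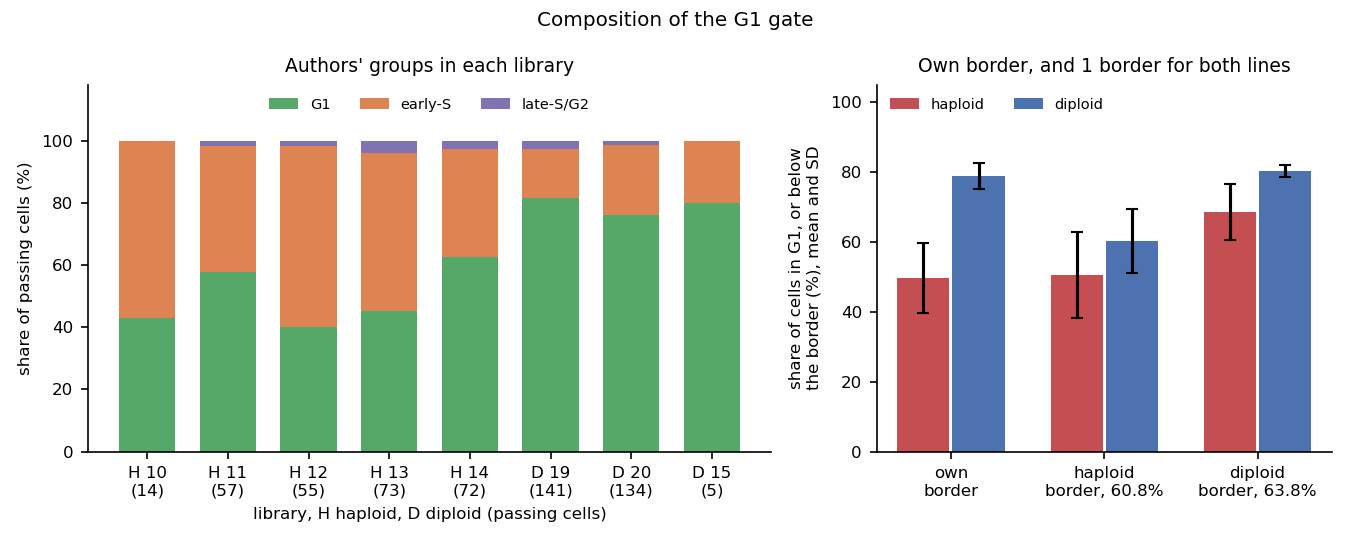
Left, share of passing cells (%) in the authors' groups per library (H haploid, D diploid, D 15 being the library labelled 15_16_17_18, number of passing cells in parentheses). Right, mean share of cells (%) in G1 by each table's own groups, and below a short-range share of 60.8 or 63.8% applied to both lines, with SD over 5 haploid (red) and 2 diploid (blue) libraries. The own groups give 49.7 and 78.8%, and the shared borders 50.5 and 60.2%, and 68.6 and 80.3%.

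The authors also placed the cells of each table in an order along the cycle. Within the span of the G1 cells of its own table, the mean G1 cell of the gate stood at 51.9 to 64.5% in haploid libraries 11 to 14 and at 44.2 to 47.1% in diploid libraries 19 and 20. The tables hold different sets of cells, so these places are given side by side without a test.

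Early-S cells differed from G1 cells in the same direction in both lines for the 4 features of folding. The short-range share was 11.7 ± 0.966 percentage points higher in early-S than in G1 in haploid libraries (4 of 4 up) and 9.87 ± 1.17 points higher in diploid libraries (2 of 2 up). The mitotic-band share differed by -3.63 ± 0.582 points in haploid and by -3.67 ± 0.314 points in diploid libraries. The groups are themselves divided along the short-range share, so these 2 changes describe the groups. The far distance was 3.22 ± 1.10 Mb longer in early-S in haploid and 3.99 ± 0.602 Mb longer in diploid libraries, up in 4 of 4 and 2 of 2. The share between chromosomes was 1.49 ± 0.353 and 1.41 ± 0.402 points higher. The 7 features' changes overlapped between the lines, and 0 of 7 (0%) differed by the exact permutation test after adjustment (adjusted p from 0.933 to 1). Unadjusted p was at least 0.133 for each, and with 4 against 2 libraries it cannot go below 0.0667. For contacts per cell the early-S minus G1 difference was 3352 ± 10134 in haploid and -2259 ± 19510 in diploid libraries, smaller than the spread between libraries in both.

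Scores of chromosome structure are on scales that the files do not define and that may differ between the tables, so they are given side by side with no test. The alignment score, named by the authors for the alignment of chromosomes with each other, averaged 0.173, 0.187, 0.204, 0.170 and 0.183 in haploid libraries 10 to 14, and 0.276 and 0.308 in diploid libraries 19 and 20. Its mean over the gate stood above 23.3% of all passing cells of the haploid table, and above 52.5% of those of the diploid 2i table. The mean far distance of the gate stood above 78.7% of cells in the haploid table and 50.2% in the diploid table. Within every library of at least 20 cells, cells with a lower alignment score tended to have a longer far distance, with Spearman's rho of -0.719 to -0.619 in 4 haploid libraries and -0.810 and -0.774 in 2 diploid libraries. From G1 to early-S the alignment score was lower in 4 of 4 haploid libraries (0.153 in early-S, 0.218 in G1) and in 2 of 2 diploid libraries (0.252 in early-S, 0.303 in G1). In other haploid libraries it averaged 0.288 in 2i_all cells and 0.312 in serum cells of all groups. The other diploid 2i conditions averaged between 0.221 (1CDU) and 0.306 (1CD_mS) over all groups.

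Compartment scores, which measure how far active and inactive chromatin keep apart, were higher in early-S than in G1 in both lines. The score within chromosomes averaged 0.341 ± 0.0274 in haploid early-S and 0.257 ± 0.00839 in haploid G1 cells, with 4 of 4 libraries up. In the diploid table it averaged 0.379 ± 0.000863 in early-S and 0.328 ± 0.00717 in G1, with 2 of 2 up. Between chromosomes the compartment score was 0.220 in haploid early-S and 0.131 in haploid G1 cells, and 0.282 in diploid early-S and 0.194 in diploid G1 cells. Over the whole gate both compartment scores were low for their table, above 25.3 and 28.2% of haploid cells and above 24.5 and 21.6% of diploid cells.

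The insulation score, a measure of how strongly domain borders separate contacts, averaged 2.37 ± 0.0178 in the haploid and 2.46 ± 0.000262 in the diploid gate. It was higher in early-S in both diploid libraries (by 0.0971 and 0.116) and in 3 of 4 haploid libraries (by 0.0575 to 0.0674), and lower by 0.0128 in haploid library 13. The replication score, which is low before the genome is copied, averaged 1.18 ± 0.0266 in haploid early-S and 1.13 ± 0.0404 in haploid G1 cells. In the diploid table it averaged 1.09 ± 0.00338 in early-S and 1.08 ± 0.00689 in G1. Early-S cells of the other diploid 2i conditions averaged 1.17 (1CDU) to 1.29 (1CD_mS), above those of the diploid gate. In other haploid early-S cells the means were 1.16 (2i_all) and 1.25 (Serum_G1/S). From G1 to early-S the replication score was up in 4 of 4 haploid libraries by 0.0320 to 0.0694 and in 2 of 2 diploid libraries by 0.00818 and 0.0227. Loop enrichments, read as log2 values from their range, averaged 1.11 ± 0.17 (EE) and 1.41 ± 0.13 (LL) in haploid and 0.69 ± 0.06 (EE) and 0.98 ± 0.00 (LL) in diploid libraries. The files do not define the letters, and values at few contacts take steps.

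**Figure D5:**
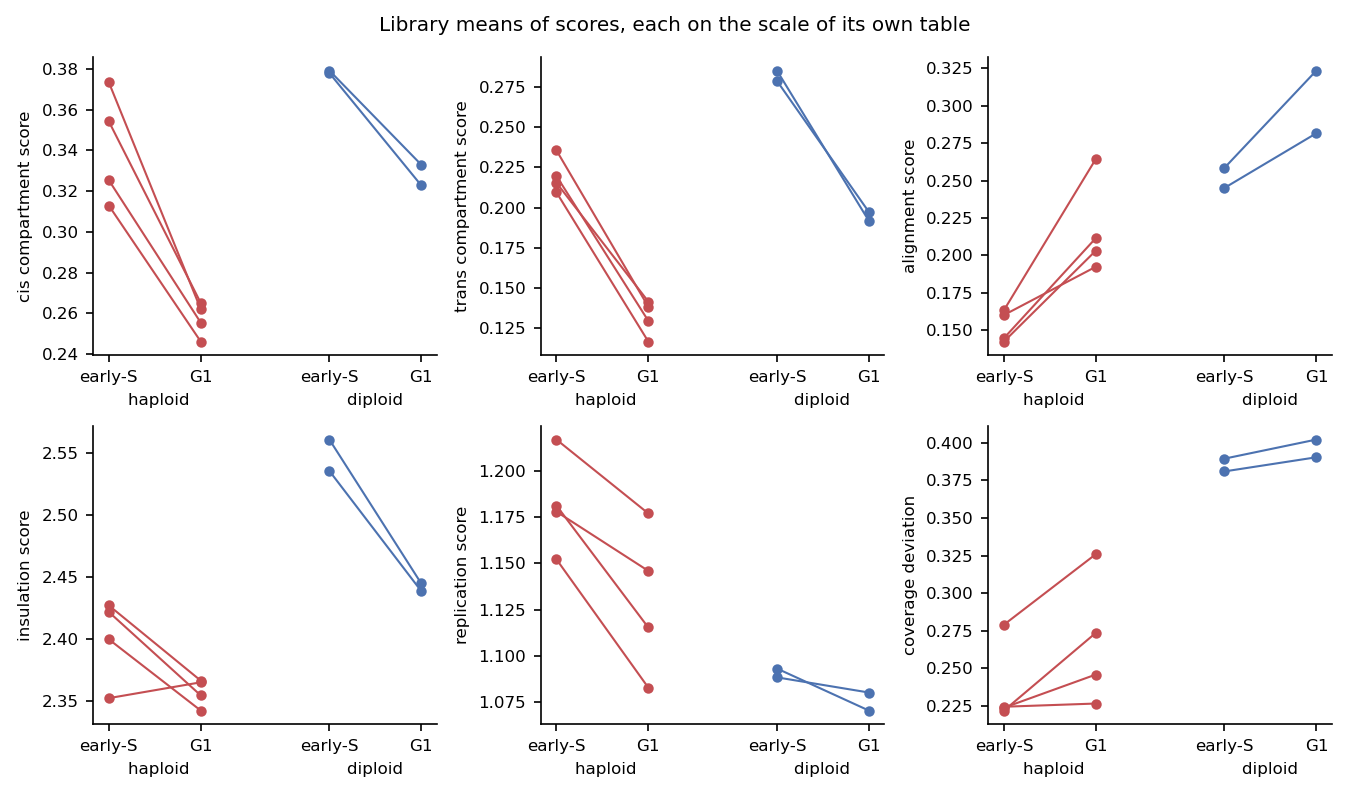
Library means of 6 of the authors' scores (undefined scales, each from its own table) in early-S and G1 cells, with lines joining the values of a library, haploid left (red, 4 libraries) and diploid right (blue, 2 libraries). In early-S (left of G1) both compartment scores are higher and the alignment score is lower in each of the 6 libraries, while the insulation score of haploid library 13 differs by -0.0128. Heights of the 2 lines are not to be compared.

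Coverage deviation, the largest departure of a chromosome's coverage in a cell, averaged 0.252 ± 0.0319 in haploid and 0.392 ± 0.00963 in diploid libraries. Single haploid cells had a lower quartile, median and upper quartile of 0.175, 0.237 and 0.295, and diploid cells of 0.186, 0.340 and 0.536. The scale of this score may also differ between the lines, so these values are given side by side.

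Quality control kept 271 of 326 listed haploid cells (83.1%, exact Clopper-Pearson 95% interval 78.6 to 87.0%) and 280 of 390 diploid cells (71.8%, 67.0 to 76.2%). By library the shares were 77.8 to 91.9% in 5 haploid and 69.8 to 83.3% in 3 diploid libraries, which overlapped (difference 7.49 points, exact permutation p = 0.179). Cells that failed had a median of 12424 contacts in 55 haploid and 5443 contacts in 110 diploid cells. Fewer than 10000 contacts were present in 27 of the failed haploid and 68 of the failed diploid cells, and in 0 passing cells of either line.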

How the data were processed

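Single-cell Hi-C of mouse ES cells was aligned with Bowtie2 to mm9, per the submitters' processing notes; contact calling and filters are not given in the sources used here. The deposited contacts per cell are a count. The deposited shares, printed as percentages, are held as a fraction between 0 and 1, and their denominators and band limits are not stated. The deposited far distance, treated as a signal in bp and shown in Mb, has no stated lower limit. Each deposited score has an undefined scale. The deposited loop enrichments were read as log2 values from their range. Groups, order, quality flag and batch are the authors'.

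Batches were joined to GEO samples through the deposited cell list; haploid batch numbers 11 to 15 are samples 10 to 14. Means over cells were taken per library (at least 10 cells), then compared as haploid minus diploid by an exact permutation test over library labels. Benjamini-Hochberg adjustment covered 21 features by set, 7 changes or 3 shares. Scores were not tested. Cells, features and comparisons were chosen with earlier results of these data known. All 7 features and 8 scores and enrichments were reported; no gene was to be named and cell type markers did not apply, because none of the tables used is by gene. Depth per cell had a median of 71638 contacts in haploid and 227260 in diploid cells, and the number of libraries limits the precision.

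Alternatives were minimums of 1 (added later), 5 and 20 cells, medians, log2 values, pooled cells, batch numbers as libraries, windows of overlapping depth (10th percentile of diploid to 90th of haploid cells) or short-range share, no cells above the 90th percentile of coverage deviation, leaving out each library, and 1 short-range border for both lines (added later). On simulated data, 0% of changed features were called with 5 or 4 against 2 libraries, which the smallest p of the test fixes in advance. With 5 against 3 libraries 99.8% of changed and 2.58% of unchanged features were called (21 features a run, 60 runs). Every simulated library held the same number of cells, and the shift was far larger than the spread between libraries. These rates therefore do not describe the comparison that keeps the small diploid library. Tools were Python 3.11.15, pandas 2.3.3, numpy 2.4.6, matplotlib 3.10.9 and scipy 1.17.1.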

Additional observations from a re-analysis of the deposited data

Results flagged for a closer look

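Of 63 groups of 4 or 5 haploid libraries tested, 4 held 1 library far from the others, and chance alone gives about 1 group in 20. Haploid library 10, with 14 cells, had a mean of 46700 contacts per cell, against 76084 to 84550 in the other haploid libraries. The same library had 1.48% of duplicated fragment ends, against 0.895 to 1.02% in the others. In early-S cells the coverage deviation of haploid library 11 was 0.279, against 0.222 to 0.224 in libraries 12 to 14. Between G1 and early-S the insulation score changed by -0.0128 in haploid library 13, against 0.0575 to 0.0674 in libraries 11, 12 and 14. Without haploid library 10 the difference in contacts per cell over all cells was -137912, against -144672 with it.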

How the results depend on the processing

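No paired analysis was possible because the labels link no haploid library (10 to 14) to a diploid library (15_16_17_18, 19 or 20). Of 478 alternative values of 32 results, 444 were counted as unchanged, and 25 results never changed direction. No main result passed the threshold after adjustment, and with 4 against 2 libraries or fewer none could pass. That covers most values that left out a library, so their side of the threshold was fixed in advance. The 444 are thus mainly a count of kept directions, not of repeated calls. With at least 1 cell per library, these differences came to an adjusted p of 0.0375 (exact permutation). Over all cells they were -1.40 points (mitotic-band share), 5.21 Mb (far distance), -144729 contacts and -1.82 points (duplicated share). In G1 they were -2.46 points (short-range share), -145064 contacts and -1.85 points (duplicated share). In early-S they were 5.09 Mb, -138799 contacts and -1.71 points (duplicated share). The G1 and early-S shares of cells, -29.5 and 28.9 points, came to 0.0268. All of these rest on 1 more diploid library, with 5 cells in all, 4 in G1 and 1 in early-S.

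The directions that turned belong to differences that were small in the main setting, where no difference of any size passed after adjustment. The share between chromosomes in G1 turned to -0.0414 points with at least 5 cells, -0.0029 in the window of overlapping short-range share, -0.149 without the highest coverage deviations and -0.467 with at least 1 cell. In early-S it turned to -0.0623 and -0.0084 under the last 2 of these. The change of the far distance turned to 0.118 Mb with at least 5 cells and 1.39 Mb with 1. With medians the changes of the mitotic-band share and the share between chromosomes turned to -0.148 and -0.179 points. The share in other groups turned to 0.649 points with at least 1 cell. Leaving out 1 library gave ranges of -0.168 to 0.342 points (share between chromosomes, G1), and for the changes -0.188 to 0.257 points (mitotic band), -0.212 to 0.356 points (between chromosomes) and -8185 to 19406 contacts, and -0.745 to 0.599 points for the share in other groups. The causes were not tested. The window of overlapping depth gave no early-S value.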
